A study of Danio rerio with 6 samples.

Results

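Glutamate and GABA receptor subunit genes were followed in the heads of *fbln1* mutant and WT zebrafish larvae. Members were the genes whose deposited name starts with gria, grin, grik or grm and then a subunit number. Names that start with gabr and then the letter of an alpha, beta, gamma, delta, rho or zeta subunit were also taken. This gave 56 of the 32520 listed genes, namely 8 AMPA, 12 NMDA, 4 kainate and 12 metabotropic glutamate receptor genes, and 7 alpha, 4 beta, 2 gamma, 1 delta, 5 rho and 1 zeta GABA-A receptor genes. Another 6 genes carry such names in capitals (GRIN2B, GRIK2, GRIK3, GRM7, GABRB2 and GABRR1) and were kept apart from the members. RNA-Seq had been performed on 3 pools of larvae homozygous for the *fbln1* allele ulg075, a CRISPR/Cas9 deletion in the coding region, and on 3 pools of WT larvae from crosses of heterozygous parents. All larvae were 10 dpf, on the AB strain background, and the labels name the transgenic line ulg071 Tg for every pool. By the paper's account of RNA extraction, heads were cut off before the bodies were genotyped and were then pooled by genotype, 21 to a pool. Other passages of the paper name whole larvae as the source of this RNA, and the labels say only larvae. The pools are called heads below, but the tissue is not settled by these sources. The pools were independent batches, so the p-values below measure the spread between pools of larvae and not between single larvae.

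Glutamate is the main excitatory transmitter of the vertebrate brain and retina, and GABA is the main inhibitory one. AMPA, NMDA and kainate receptors are channels built of several subunits, which pass cations when glutamate binds, while metabotropic glutamate receptors signal through G proteins. GABA-A receptors are chloride channels of mixed subunits, most often alpha, beta and gamma, and the rho subunits form GABA-gated channels that are well known from the retina. Many of these genes have a and b copies in zebrafish that go back to a genome duplication in the fish lineage. AMPA receptors carry most fast excitation, NMDA receptors let in calcium and serve plasticity, and kainate and metabotropic receptors adjust transmission on both sides of the synapse.

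Between 15894081 and 18721515 reads were counted on genes in the mutant pools, and between 15174207 and 16596640 in the WT pools. Values are normalized counts, which are reads divided by 1 size factor per library. A floor of 3 reads, which covers counting error only, lies between 2.60 and 3.20 of them. No transcript lengths were used, so levels are compared between groups and not between genes. On the first principal component of all tested genes, which held 67.3% of the variance, the mutant pools lay apart from the WT pools, and mutant pool 3 was the mutant pool nearest to WT. The *fbln1* mRNA itself stood at 93.2, 53.1 and 39.9 normalized counts in the libraries labelled mutant pools 1, 2 and 3, against 77.4, 136 and 70.4 in WT pools 1, 2 and 3. These values overlapped, and the difference was not past the threshold (log2 fold change -0.63 with a standard error, SE, of 0.33, and an adjusted p of 0.162 in limma). Without mutant pool 1 it was -0.96 with an adjusted p of 0.0419 (limma). A deletion need not remove the mRNA, so these reads do not check the genotype of a pool.

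Receptor subunit mRNAs were mostly lower in the mutant heads than in WT heads, and none rose. Of the 55 members with enough counts for the test, 26 (47.3%) fell at an adjusted p under 0.05 (limma), beside 15.1% of all 20691 tested genes, and 0 rose, beside 18.9% of all genes. At an unadjusted p under 0.05, 35 members were lower and 0 higher, and edgeR and DESeq2 also called 0 members higher. The fitted difference was negative in 54 of 55 members, with *grin3ba* at 0.04 as the exception (52 of 55 with TMM scaling), and the median log2 fold change was -0.30 (range -0.68 to 0.04) beside -0.03 for all tested genes. Every mutant pool lay below every WT pool in 35 of the 55 (63.6%), beside 24.3% of all tested genes, and the opposite held for 0 members, beside 24.5%. The sum over the members was 60972, 55668 and 68393 normalized counts in mutant pools 1, 2 and 3, against 77738, 76955 and 78808 in WT pools 1, 2 and 3, so the mutant mean was 79.2% of the WT mean. This sum is weighted to *grin1b* and *grin1a*, the members with the highest counts. For *grin1b* alone the mean was 21734 in the mutant pools and 28191 in the WT pools. In bulk heads, fewer cells of a type and less RNA per cell cannot be told apart.

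The changes were small in size. Of the 26, 5 were also past an absolute log2 fold change of 0.5 (*gabrr3a*, *gabrr3b*, *gabrz*, *gabrb4* and *grik1b*). Among all tested genes, 555 of the 3116 that fell were past that limit, which is 2.68% of the 20691 tested. The remaining member, *gabrr2b*, a rho subunit gene, was under the filter of 10 normalized counts in 3 libraries, at 8.20, 5.21 and 6.93 in the mutant pools and 9.29, 6.60 and 6.40 in the WT pools. The count of members that fell depended on single pools. It was 16, 15 and 34 without mutant pools 1, 2 and 3, and 11, 20 and 14 without WT pools 1, 2 and 3.

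Markers of other cell types differed between the same pools. The pan-neuronal list of 46 tested genes summed to 150099 to 161770 normalized counts in the mutant pools and 166865 to 170659 in the WT pools, 91.9% of WT. In this list 10 genes (21.7%, beside 15.1% of all tested genes) fell and 5 rose, with a median log2 fold change of -0.13. Its fitted differences were negative in 36 of the 46. Every mutant pool lay below every WT pool in 24 of them (52.2%, beside 24.3% of all tested genes), and above in 5. Genes of tissues outside the brain went the other way (18.9% of all tested genes rose), with 21 of 22 muscle, 17 of 20 bone and cartilage, 18 of 18 skin, 23 of 26 intestine and 20 of 21 exocrine pancreas genes that rose and 0 that fell. The intestine list summed to 131917 to 210998 normalized counts in the mutant pools and 32604 to 39163 in the WT pools, and the bone and cartilage list to 21039 to 27094 in the mutant and 2902 to 3509 in WT. The listed gene *bglap* was at 0 in all libraries, and *bglapl*, which the paper names as an osteoblast marker, was not in the list.

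When the libraries were scaled to the mean log2 level of the pan-neuronal list, 19 of the 55 members fell and 0 rose, with a median of -0.23, beside 8.86% of all genes that fell. That mean holds *tubb2b*, a tubulin gene that rose by 1.62 on the log2 scale. Scaled to the median of the list, an alternative added after the values were seen, 8 of 55 fell (median -0.15), beside 3.70% of all genes, and the median of all tested genes moved to 0.12. Fitted differences were negative in 50 of the 55 members on the first of these scalings and in 46 on the second. Of the 46 pan-neuronal genes, 6 fell and 5 rose on the first scaling, and 1 fell on the second. Each scaling moves all genes of a library alike, so it cannot change the gap between the members and all tested genes. How far tissue makeup or the mix of neuron types takes part in any of these calls, on any scaling, was not tested.

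**Figure D1:**
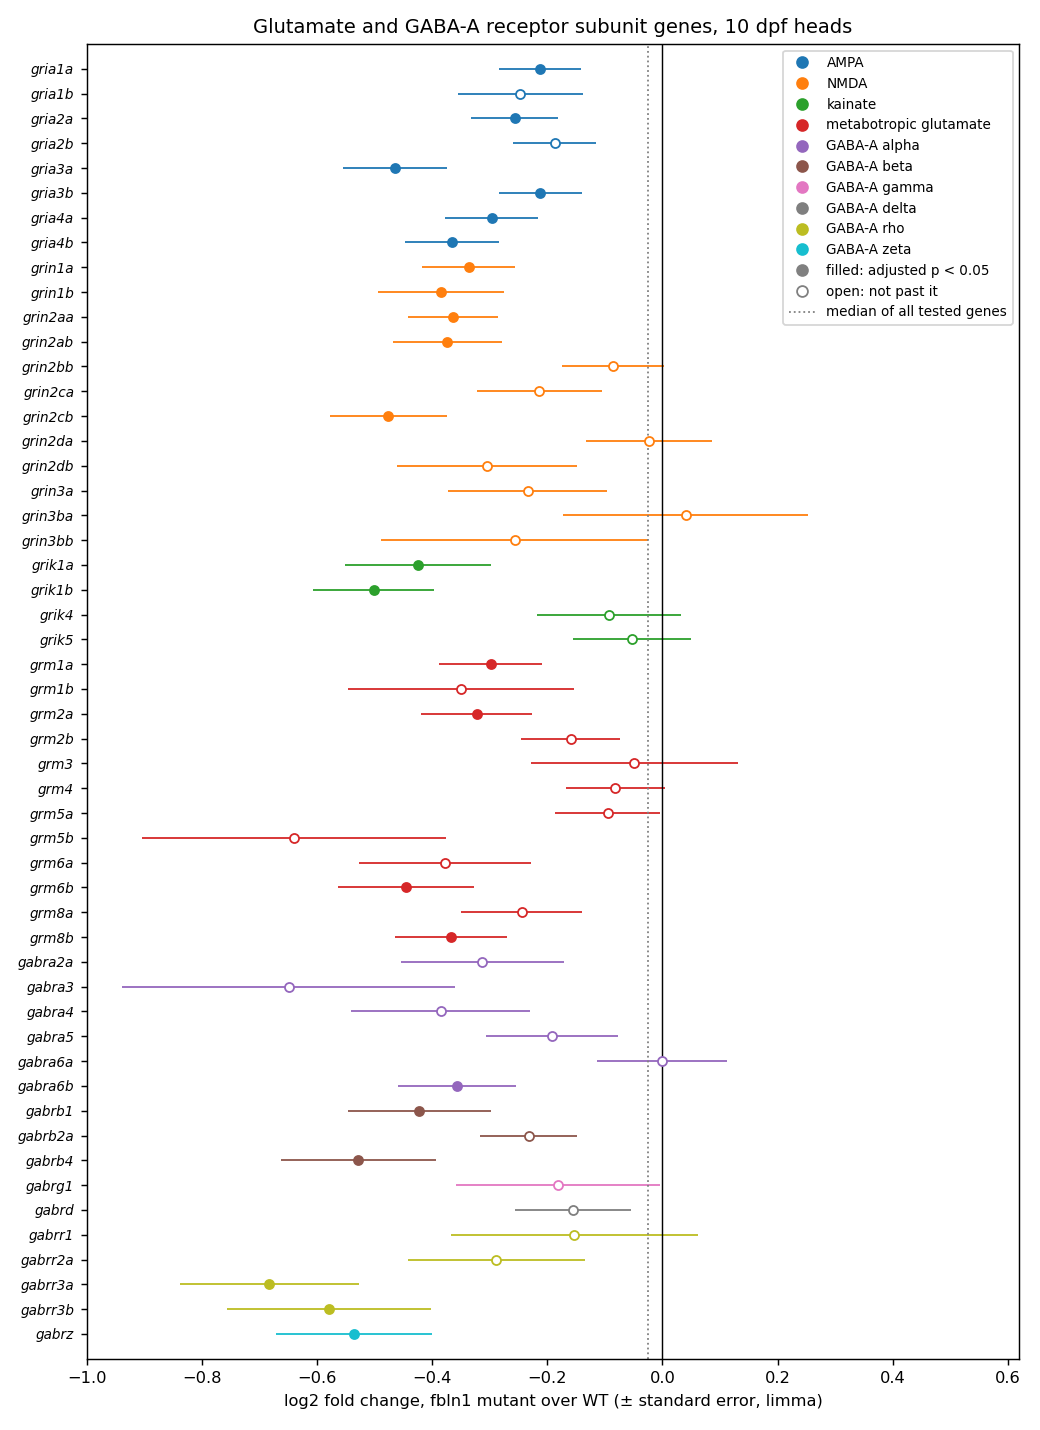
Log2 fold change, *fbln1* mutant over WT, of 52 of the 55 tested receptor subunit genes (points, with bars of ± 1 standard error from limma), coloured by family. Filled points are the 23 drawn genes with an adjusted p under 0.05, and the dotted line is the median of all tested genes at -0.03. All filled points lie left of 0, and *gabrr3a* lies farthest left at -0.68.

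AMPA receptor subunit genes were lower in every mutant pool. Of the 8 genes 6 fell (75.0%), beside 15.1% of all tested genes, and in all 8 every mutant pool was below every WT pool, beside 24.3% of all tested genes. Their sum was 12332, 11593 and 13433 normalized counts in mutant pools 1, 2 and 3, against 15267, 15238 and 15478 in WT pools 1, 2 and 3, or 81.2% of WT. The largest fall was in *gria3a* (ENSDARG00000032737), one of the pore-forming subunit genes. It had 2886, 2630 and 3372 normalized counts in mutant pools 1, 2 and 3, against 4132, 3964 and 4107 in WT pools 1, 2 and 3. All mutant pools were below the lowest WT pool, and the log2 fold change was -0.46 (SE 0.09, limma adjusted p = 0.00359). Its copy *gria3b* fell by 0.21 on the log2 scale (adjusted p = 0.0439). Both *gria4* copies fell, by 0.30 for *gria4a* and 0.37 for *gria4b*, and so did *gria1a* by 0.21 and *gria2a* by 0.26. The calls of *gria1a* and *gria3b* were lost with edgeR (adjusted p = 0.0731 and 0.0858) and with DESeq2 (adjusted p = 0.101 and 0.102).

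The smallest difference of the family was in *gria2b* (ENSDARG00000052765), whose product in its edited form keeps calcium out of the channel. Its level was 2077, 2063 and 2209 normalized counts in mutant pools 1, 2 and 3, against 2291, 2553 and 2388 in WT pools 1, 2 and 3. The pools did not overlap, but the log2 difference of -0.19 missed the threshold (SE 0.07, limma adjusted p = 0.0656). The eighth gene, *gria1b*, also missed it at -0.25 (limma adjusted p = 0.101). After scaling to the pan-neuronal mean, only *gria3a* and *gria4b* of this family fell.

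Of the 12 NMDA receptor genes 5 fell (41.7%, beside 15.1% of all tested genes), and these were both copies of *grin1* and *grin2a* and 1 copy of *grin2c*. The *grin1* genes encode the glycine-binding subunit that every NMDA receptor needs. For *grin1b* (ENSDARG00000025728), values were 21634, 18701 and 24868 normalized counts in mutant pools 1, 2 and 3, against 27650, 27758 and 29166 in WT pools 1, 2 and 3. The groups did not overlap, and mutant pool 2 was the lowest. The log2 fold change was -0.38 (SE 0.11, limma adjusted p = 0.0216). The call was lost without mutant pool 1 (adjusted p = 0.0730), mutant pool 2 (0.0553), WT pool 1 (0.0529) or WT pool 3 (0.0804). Its copy *grin1a* had a log2 fold change of -0.34 (adjusted p = 0.0101).

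The *grin2* genes encode the glutamate-binding subunits, which set the kinetics of the channel. The largest fall among them was in *grin2cb* (ENSDARG00000077560), with 572, 459 and 535 normalized counts in mutant pools 1, 2 and 3, against 763, 661 and 752 in WT pools 1, 2 and 3. The highest mutant pool was below the lowest WT pool (log2 fold change -0.48, SE 0.10, limma adjusted p = 0.00589). Both *grin2a* copies fell by nearly the same amount, 0.36 for *grin2aa* and 0.37 for *grin2ab* on the log2 scale. In *grin2bb* the difference was -0.09 with overlapping pools (limma adjusted p = 0.480), and in *grin2da* (ENSDARG00000086207) it was -0.02 (SE 0.11, adjusted p = 0.891). The *grin2da* values of 265, 328 and 319 normalized counts in the mutant pools enclosed those of 299, 307 and 317 in the WT pools. None of the 3 *grin3* genes, which encode modulatory subunits, was past the threshold.

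Of the 4 kainate receptor genes 2 fell (50%, beside 15.1% of all tested genes). These were both copies of *grik1*, which encodes a subunit that can form a channel on its own, while *grik4* and *grik5*, whose subunits need such a partner, did not pass the test. The capital-named GRIK2 and GRIK3, which in mammals encode subunits of the same channel-forming type as *grik1*, did not pass it either, at log2 fold changes of -0.20 and -0.32 (limma adjusted p = 0.0692 and 0.139). Normalized counts of *grik1b* (ENSDARG00000040627) were 712, 547 and 705 in mutant pools 1, 2 and 3, against 946, 918 and 899 in WT pools 1, 2 and 3. The gap between the groups was wider than the range of the WT pools, and the log2 fold change was -0.50 (SE 0.10, limma adjusted p = 0.00513).

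For *grik1a* (ENSDARG00000069139), 608, 454 and 654 normalized counts in mutant pools 1, 2 and 3 stood against 784, 708 and 788 in WT pools 1, 2 and 3. The pools did not overlap, with a log2 fold change of -0.42 (SE 0.13, limma adjusted p = 0.0252), but mutant pool 2 carried much of it. Without that pool the difference was -0.27 (limma adjusted p = 0.0553), and the call was also lost without WT pool 1 (0.0879) or WT pool 3 (0.0843). By contrast, *grik5* (ENSDARG00000101449) stood at 320, 329 and 310 normalized counts in the mutant pools and 310, 368 and 319 in the WT pools. These overlapped (log2 fold change -0.05, SE 0.10, adjusted p = 0.726), and *grik4* was at -0.09 (limma adjusted p = 0.598). The difference between the *grik1* genes and the other 2 was not tested.

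Of the 12 metabotropic glutamate receptor genes 4 fell (33.3%, beside 15.1% of all tested genes), and every fitted difference was negative. Their sum in the mutant was 82.8% of WT. The members that fell came from all 3 groups of this receptor class. They were *grm1a* of the group that acts through phospholipase C (-0.30), *grm2a* of the first inhibitory group (-0.32), and *grm6b* and *grm8b* of the second inhibitory group (-0.45 and -0.37), all as log2 fold changes. The *grm6* receptor is a receptor by which ON bipolar cells of the retina sense glutamate from photoreceptors. For *grm6b* (ENSDARG00000025671), 1150, 831 and 1163 normalized counts were found in mutant pools 1, 2 and 3, against 1462, 1362 and 1409 in WT pools 1, 2 and 3. The groups did not overlap and mutant pool 2 lay far below the other 2 mutant pools (SE 0.12, limma adjusted p = 0.0158). Leaving out WT pool 1 or WT pool 3 ended this call (adjusted p = 0.0639 and 0.0511).

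The largest fitted difference of the class, in *grm5b* (ENSDARG00000102067), was not past the test. Its pools spread widely, with 65.6, 95.8 and 140 normalized counts in mutant pools 1, 2 and 3 and 192, 118 and 149 in WT pools 1, 2 and 3. Mutant pool 3 lay above WT pool 2, and the log2 fold change was -0.64 (SE 0.26, limma adjusted p = 0.0835), or -0.91 without mutant pool 3 (adjusted p = 0.0135). The copy *grm5a* was at -0.10 (limma adjusted p = 0.446). The smallest difference was that of *grm3* (ENSDARG00000031712), at 125, 92.7 and 131 normalized counts in the mutant pools and 106, 113 and 140 in the WT pools. These overlapped in part (log2 fold change -0.05, SE 0.18, limma adjusted p = 0.858).

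**Figure D2:**
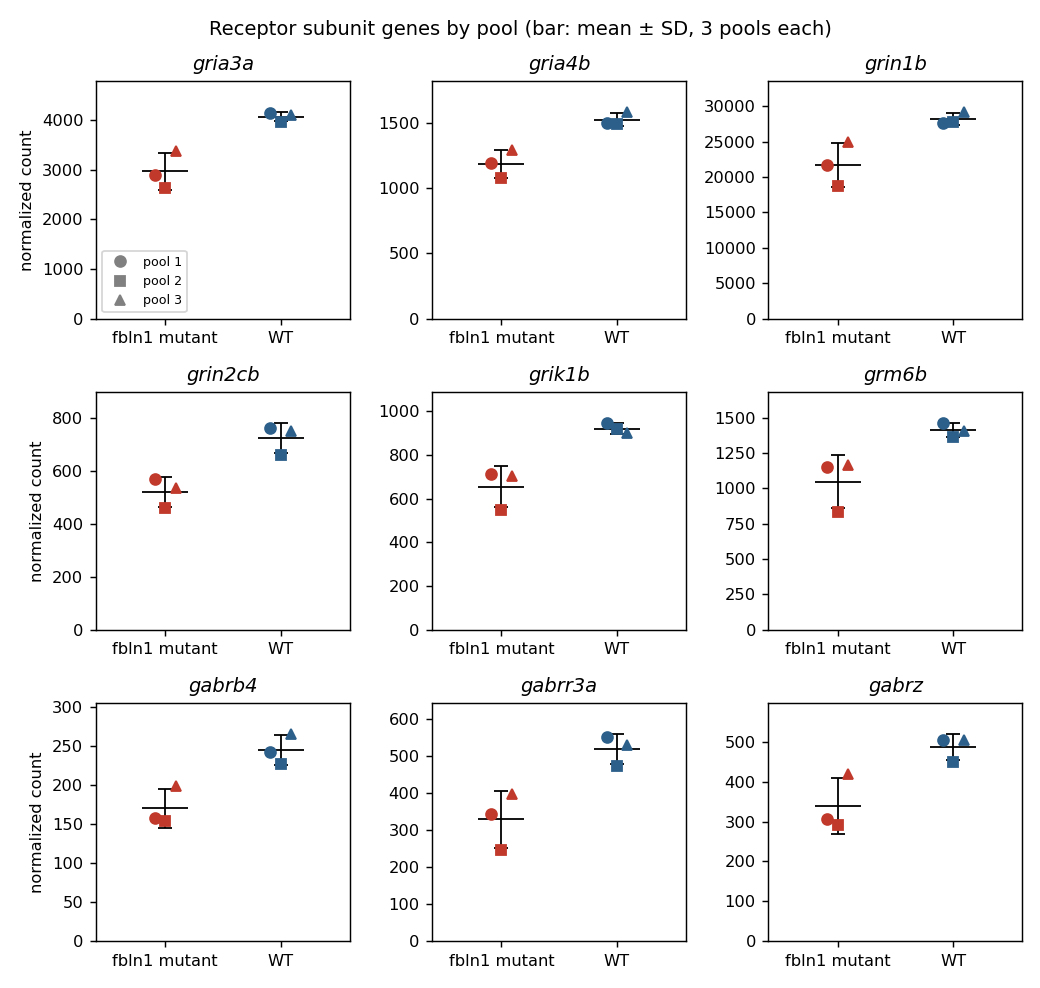
Normalized counts of 9 receptor subunit genes that fell, by pool (circle, square and triangle for pools 1, 2 and 3), with the mean and ± 1 SD of 3 pools as bars, *fbln1* mutant left of WT, and each vertical axis starting at 0. In all 9 genes the highest mutant pool lies below the lowest WT pool, as in 24.3% of all tested genes, and mutant pool 2 is the lowest of the mutant pools. The 9 were picked among genes that fell, and *gabrr3b*, which also fell but with overlapping pools, is not drawn.

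Among the GABA-A alpha subunit genes, 2 of 7 fell (28.6%, beside 15.1% of all tested genes), and in 6 of the 7 every mutant pool was below every WT pool (85.7%, beside 24.3%). The alpha subunit shapes the GABA binding site and the drug response of the channel. Among them *gabra6b* fell by 0.36 on the log2 scale (adjusted p = 0.0224). Its copy *gabra6a* (ENSDARG00000075058) had 214, 229 and 228 normalized counts in the mutant pools and 236, 204 and 233 in the WT pools. These values overlapped, with a log2 fold change that rounds to 0 (SE 0.11, limma adjusted p = 0.999). In mammals the alpha6 subunit is a mark of cerebellar granule cells.

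The largest fitted difference among the alpha genes was in *gabra3* (ENSDARG00000090883), a gene with few reads. It had 25.6, 54.2 and 49.4 normalized counts in mutant pools 1, 2 and 3, against 58.8, 60.3 and 76.8 in WT pools 1, 2 and 3. Mutant pool 1 was far below the rest, and the log2 difference of -0.65 missed the threshold (SE 0.29, limma adjusted p = 0.107).

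Beta subunits help form the GABA binding site, and 3 of their 4 genes fell, beside 15.1% of all tested genes, with no overlap of pools in any of the 4, beside 24.3%. In *gabrb4* (ENSDARG00000099096), 158, 153 and 198 normalized counts in mutant pools 1, 2 and 3 stood against 242, 226 and 265 in WT pools 1, 2 and 3. The log2 fold change was -0.53 (SE 0.13, limma adjusted p = 0.0133), and the adjusted p was 0.0578 without WT pool 3. The gene *gabrb1* fell by 0.42 on the log2 scale. In *gabrb2a* (ENSDARG00000079586), 1067, 983 and 1202 normalized counts in mutant pools 1, 2 and 3 stood against 1306, 1253 and 1249 in WT pools 1, 2 and 3. That difference of -0.23 missed the threshold (SE 0.08, limma adjusted p = 0.0555), and passed it without mutant pool 3 (adjusted p = 0.0116).

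Gamma subunits take part in the binding of drugs to the channel and in its clustering at synapses. The gamma gene *gabrg1* (ENSDARG00000101995) stood at 79.9, 92.7 and 101 normalized counts in the mutant pools and 122, 101 and 89.6 in the WT pools, which overlapped (log2 fold change -0.18, SE 0.18, limma adjusted p = 0.457). Values of the other gamma gene are not reported here, so *gabrg1* does not stand for the family. The delta subunit belongs to receptors outside synapses that carry tonic inhibition. Its gene *gabrd* (ENSDARG00000059763) had 354, 384 and 425 normalized counts in the mutant pools and 434, 402 and 458 in the WT pools. Mutant pool 3 was above WT pool 2, and the log2 difference of -0.16 missed the threshold (SE 0.10, limma adjusted p = 0.256).

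The largest falls of all members were in the rho and zeta genes. For *gabrr3a* (ENSDARG00000027153), 344, 245 and 397 normalized counts were found in mutant pools 1, 2 and 3, against 552, 474 and 530 in WT pools 1, 2 and 3. The mutant mean was 63.3% of the WT mean, and the highest mutant pool was below the lowest WT pool (log2 fold change -0.68, SE 0.16, limma adjusted p = 0.00801). Its copy *gabrr3b* (ENSDARG00000030750) had 243, 209 and 340 in mutant pools 1, 2 and 3, against 438, 318 and 416 in WT pools 1, 2 and 3. Here mutant pool 3 was above WT pool 2, and the call was weaker (log2 fold change -0.58, SE 0.18, limma adjusted p = 0.0286). It was lost without mutant pool 1, mutant pool 2, WT pool 1 or WT pool 3 (adjusted p = 0.0784, 0.102, 0.115 and 0.0970).

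The gene *gabrz* (ENSDARG00000094512), listed as a zeta subunit, had 307, 292 and 421 normalized counts in mutant pools 1, 2 and 3, against 507, 450 and 506 in WT pools 1, 2 and 3. All mutant pools were below the WT pools (log2 fold change -0.54, SE 0.14, limma adjusted p = 0.0127), and the adjusted p was 0.0542 without WT pool 1. The other tested rho genes did not pass the test. These were *gabrr2a* at -0.29 (limma adjusted p = 0.171) and *gabrr1* (ENSDARG00000043902) at -0.15 (SE 0.21, adjusted p = 0.614), and the *gabrr1* values of 109, 106 and 78.0 normalized counts in the mutant pools overlapped those of 122, 127 and 80.0 in the WT pools.

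Of the 6 genes named in capitals, 1 fell (16.7%, near the 15.1% of all tested genes). This was GABRR1 (ENSDARG00000098081), a second gene under the rho1 name, with 845, 707 and 1027 normalized counts in mutant pools 1, 2 and 3, against 1239, 1202 and 1286 in WT pools 1, 2 and 3. The groups did not overlap (log2 fold change -0.55, SE 0.12, limma adjusted p = 0.00596). The other 5 had log2 fold changes from -0.39 to -0.20, none past the threshold. In 5 of the 6, GABRR1 among them, every mutant pool was below every WT pool (83.3%, beside 24.3% of all tested genes). With these 6 genes included, 27 of 61 fell and the median stayed at -0.30.

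Many members are one of a pair of paralogs. Of the 17 pairs of a and b copies with both tested, both copies fell in 6 pairs (*gria3*, *gria4*, *grin1*, *grin2a*, *grik1* and *gabrr3*), 1 copy in 8 and neither in 3. The call of *gria3b* was lost with edgeR and with DESeq2. Taken singly, 47.3% of the members fell, beside 15.1% of all tested genes. Pairs of other genes were not counted, so these pair counts are a description only. Reads shared between near-identical copies could have been split between them by the counting, so the division within a pair is less certain than its sum. The widest gaps between copies of a pair in which 1 fell were in *gabra6* (0 and -0.36) and *grin2c* (-0.21 and -0.48), and the difference within a pair was not tested.

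Subunit composition was read from 4 ratios of reads, chosen after values had been seen, of which 3 are given. The *gria2* copies made up 37.3 ± 0.547% of AMPA subunit reads in the mutant pools and 35.4 ± 0.990% in the WT pools (SD, n = 3 each). The ratio of *grin2a* to *grin2b* reads, with GRIN2B counted to the second, was 2.62 ± 0.0501 in the mutant pools and 3.08 ± 0.242 in the WT pools. Each of these ratios parted the pools completely (exact two-sided permutation test, p = 0.1, which is the smallest p this design can give, and 0.133 adjusted over the 4 ratios). The *grin1* share of NMDA subunit reads was 85.1 ± 0.675% in the mutant and 85.7 ± 0.403% in WT (exact p = 0.2, adjusted p = 0.2), with overlapping pools. Such ratios are within a library and do not depend on its scaling.

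**Figure D3:**
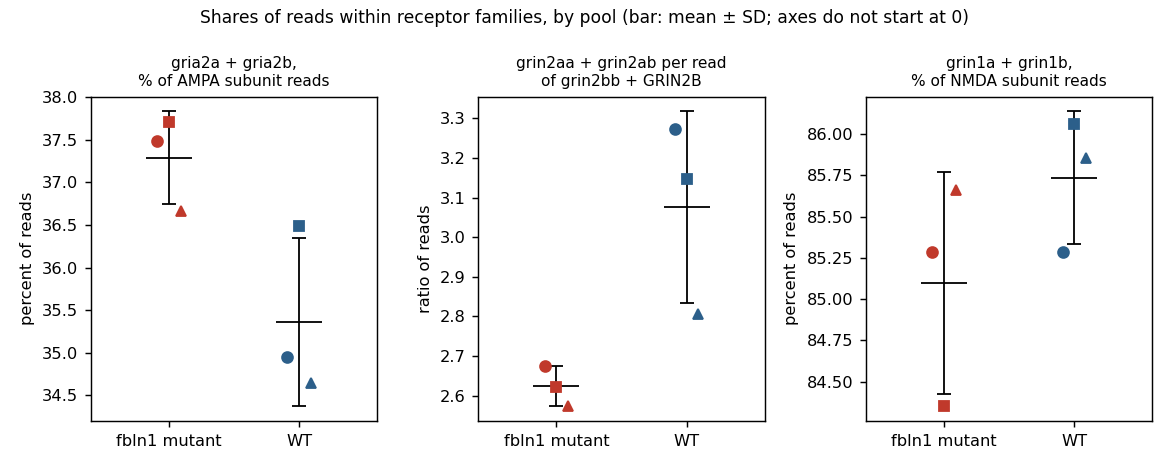
Shares and a ratio of reads within receptor families by pool, *fbln1* mutant left of WT, with the mean and ± 1 SD of 3 pools (circle, square and triangle for pools 1, 2 and 3; vertical axes do not start at 0). The *gria2* share lies between 36.7 and 37.7% in the mutant pools and between 34.6 and 36.5% in the WT pools, and the *grin1* shares overlap.

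The mutant pools differed among themselves in the same way for most members. Mutant pool 2 was the lowest of the mutant pools in 35 of the 55 tested members, mutant pool 1 in 14 and mutant pool 3 in 6, and mutant pool 3 was the highest in 41. The median over members of the log2 level, set against the WT mean of each gene, was -0.32, -0.36 and -0.16 in mutant pools 1, 2 and 3, and 0.01, -0.02 and 0.01 in WT pools 1, 2 and 3. The pan-neuronal list gave the same order at smaller size, with -0.17, -0.21 and -0.08 in mutant pools 1, 2 and 3. Among the lists that rose, muscle, skin and exocrine pancreas genes were highest in mutant pool 2, with medians of 1.23, 1.34 and 0.77 for muscle in mutant pools 1, 2 and 3. Bone and cartilage genes (2.86, 2.46 and 2.43) and intestine genes (3.37, 2.69 and 2.22) were highest in mutant pool 1, and all 5 lists were lowest in mutant pool 3 of the mutant pools. Their part in the receptor values was not tested.

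**Figure D4:**
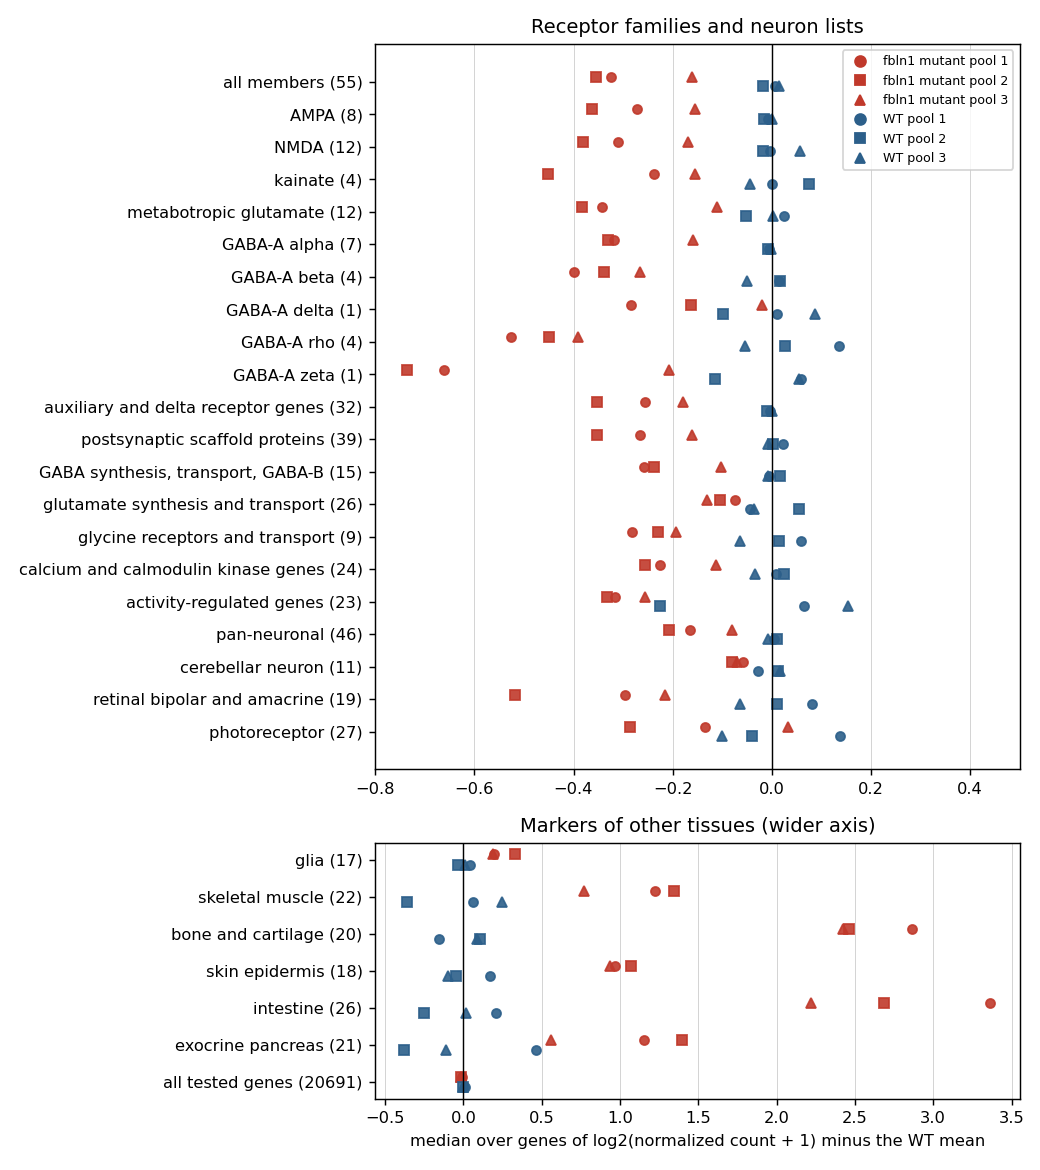
Median over the genes of each drawn family or list of log2(normalized count + 1) minus the WT mean of the gene, by pool (red, *fbln1* mutant; blue, WT; circle, square and triangle for pools 1, 2 and 3), with the number of tested genes in brackets and a wider axis in the lower panel. The GABA-A gamma family is not drawn. The mutant pools stand at -0.32, -0.36 and -0.16 for all receptor subunits, left of every WT pool, and to the right of every WT pool for muscle, bone, skin, intestine and pancreas genes.

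Genes that act beside the receptors were taken from lists written for the comparison, and their counts stand beside 15.1% of all tested genes that fell and 18.9% that rose. Auxiliary proteins, such as the TARP and Shisa families that steer AMPA receptors, fell in 9 of 32 genes (28.1%, median -0.27) and rose in 0. Among them *shisa8b* fell by 0.50 on the log2 scale (limma adjusted p = 0.00191) and *cacng5a* by 0.42 (adjusted p = 0.00798), while *cacng2a*, at -0.14, was not past the test (adjusted p = 0.228). Of the postsynaptic scaffold genes 15 of 39 fell (38.5%) and 0 rose (median -0.28). These included *dlg2* (-0.48) and *dlg4b* (-0.44), of the PSD-95 family that holds NMDA receptors in place, and *shank2a* (-0.47), all with a limma adjusted p under 0.05. The abundant *syngap1b* was at -0.19 (adjusted p = 0.0753).

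Genes of transmitter supply were counted in the same way. For GABA synthesis, transport and the GABA-B receptors, 5 of 15 genes fell (33.3%, beside 15.1% of all tested genes) and 1 rose, with a median of -0.23. The log2 fold changes in this list ranged from -0.73 to 1.97. The GABA-B receptor gene *gabbr1b* fell by 0.34 and the GABA transaminase gene *abat* by 0.29 on the log2 scale, and *gad1b*, which makes GABA, was at -0.23 (limma adjusted p = 0.0519). For glutamate synthesis and transport, 6 of 26 fell (23.1%, near the 15.1% of all tested genes) and 1 rose, with a median of -0.08 beside -0.03 for all tested genes. Members that fell were the vesicular transporter *slc17a7b* (-0.47), the uptake transporter *slc1a7b* (-0.64) and the glutamine synthetase gene *glula* (-0.35), the last of which also stands in the list of glial genes. Of the calcium and calmodulin kinase genes that act after receptor opening, 11 of 24 fell (45.8%) and 2 rose (median -0.19). Among those that fell were *camk2b1* (-0.27) and *trpm1a* (-0.45), whose product is the channel at the end of the *grm6* pathway in ON bipolar cells, and *plcb3* rose by 0.62.

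Marker lists of cells that carry these receptors were set beside them. Retinal bipolar and amacrine genes fell in 15 of 19 cases (78.9%, beside 15.1% of all tested genes) with 0 that rose (median -0.36), and summed to 24716 to 29871 normalized counts in the mutant pools and 33045 to 37108 in the WT pools. Among them were the transcription factor genes *pax6a* (-0.43, limma adjusted p = 0.00686) and *isl1* (-0.38, adjusted p = 0.00876), and the protein kinase C gene *prkcaa* of ON bipolar cells was at -0.10 (adjusted p = 0.463). Of 11 cerebellar Purkinje and granule genes 1 fell, *calb2b* by 0.31, and *pvalb7* of Purkinje cells was at -0.0038 with overlapping pools (adjusted p = 0.981). The photoreceptor list had 5 genes that fell and 5 that rose of 27, or 18.5% each way. These shares are near those of all tested genes (15.1% fell and 18.9% rose). In it *crx* was at -0.44 and *opn1lw2*, which has a near-identical tandem copy, at 1.04. The glial list had 1 of 17 that fell (5.88%) and 5 that rose, beside the same shares of all tested genes, with *fabp7a* of radial glia at 0.99. Bulk pools do not show which cells gave the reads of *grm6b*, *gabrr3a* or the retinal list. Whether the fall of that list takes part in the falls of these members was not tested, and whether these lists differ from each other was not tested either.

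**Figure D5:**
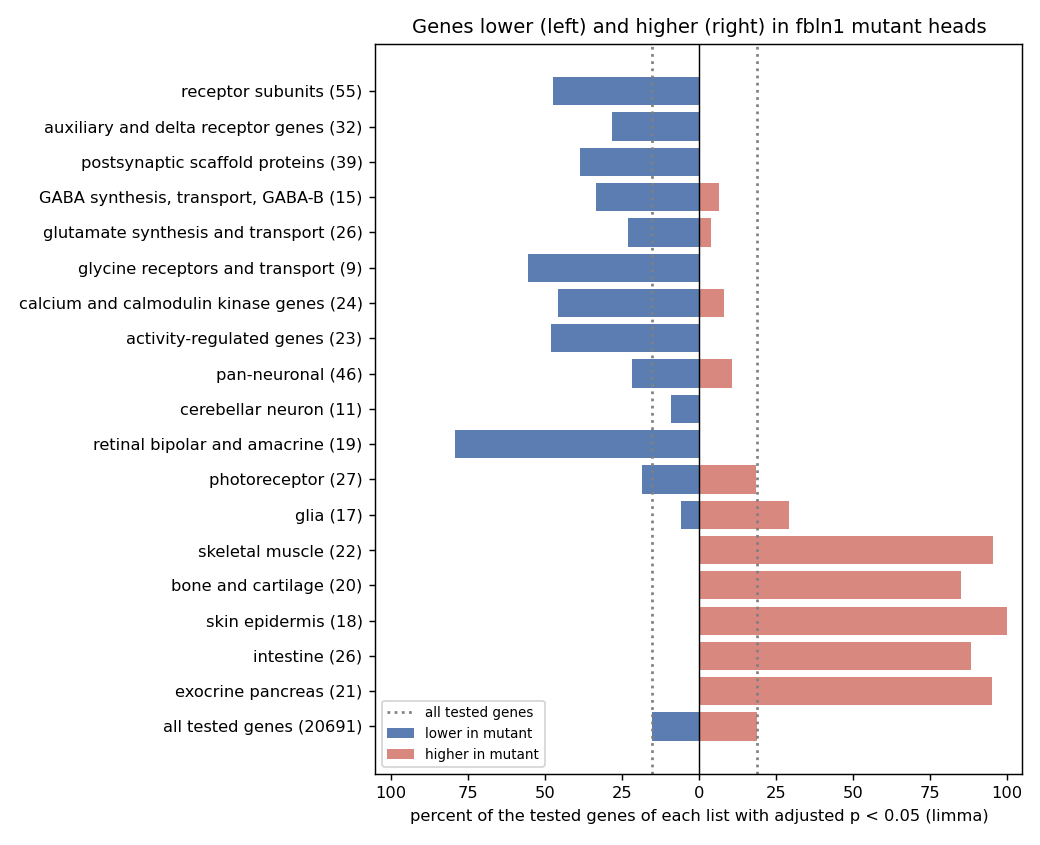
Percent of the tested genes of each list with a limma adjusted p under 0.05, lower in the *fbln1* mutant to the left of 0 and higher to the right, with the number of tested genes in brackets and dotted lines at the shares of all tested genes, 15.1% and 18.9%. The receptor subunits reach 47.3% on the left and 0 on the right, and the retinal bipolar and amacrine list reaches 78.9% on the left.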

How the data were processed

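RNA-Seq reads were processed by the authors with the nf-core rnaseq pipeline version 3.0 on the GRCz11 genome with Ensembl release 103, from stranded poly(A) libraries. The authors deposited gene counts divided by 1 size factor per library, a normalized signal. Dividing these deposited values by the step between low values gave whole reads for 100% of the values of each library, at a tolerance of 0.02. A second deposited table, with the fold changes and p-values of the authors' own comparison, was not used. The sorted osteoblast samples were not analysed here.

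The test took genes that reached 10 normalized counts in 3 or more of 6 libraries. It was run with limma version 3.58.1 in R version 4.3.3, on log2(normalized count + 1), which understates the change of low genes. Genotype was the only term, variances were moderated with a trend on expression, and Benjamini-Hochberg adjustment ran over all 20691 genes. A gene fell or rose at an adjusted p under 0.05. The study's second limit, an absolute log2 fold change above 0.5, was counted separately. edgeR version 4.0.16 and DESeq2 version 1.42.0 on the recovered reads, other scalings, filters and pseudocounts (0.5 and 5), a replicate block and leaving out each library were alternatives. The fit was tested on simulated data.

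The members, the lists and the rules were chosen with earlier results of these data known. Of the members, those named were, per family, the largest fall among called genes, the highest mean and the smallest difference, then the 10 largest called changes and all past 0.5. From each list, up to 4 genes with the smallest adjusted p and up to 2 abundant uncalled genes were eligible. Single values of some members and list genes are not reported here, though they stay in the counts. Others named beside them were chosen after their values were seen.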

Additional observations from a re-analysis of the deposited data

How the results depend on the processing

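The count of 26 receptor subunit genes that fell was 24 with TMM scaling, 27 with library totals, 25 without the filter, 24 with edgeR, 22 with DESeq2 and 9 without the variance trend, and 0 rose in any of these. In all 19 settings run, *gria3a*, *gria4b*, *grik1b* and *grin2cb* fell. The median of the members was -0.15 when libraries were scaled to the median of the pan-neuronal list, which moved the median of all genes from -0.03 to 0.12. With single pools left out, the count of members that fell ranged from 11 to 34, that past the fold limit from 0 to 11 and the log2 fold change of *fbln1* from -0.96 to -0.34. The ranges were 3 to 16 for pan-neuronal, 0 to 2 for cerebellar, 6 to 15 for retinal and 2 to 8 for photoreceptor genes that fell, and 2 to 6 for glial and 11 to 20 for pancreas genes that rose. They were 3 to 11 for auxiliary, 7 to 19 for scaffold, 2 to 7 for GABA, 2 to 5 for glycine, 1 to 12 for calcium and 4 to 14 for activity-regulated genes that fell. Without the variance trend, 2 members were past the fold limit, and 1 pan-neuronal, 0 cerebellar, 2 retinal, 1 photoreceptor, 4 auxiliary, 4 scaffold, 1 GABA, 3 glutamate, 2 glycine, 1 calcium and 4 activity-regulated genes fell, while 2 glial and 7 pancreas genes rose. Calls lost there included *grin1b*, *grm6b*, *gabrr3a*, *gabrz*, *gabrr3b* and *grik1a*. With TMM scaling, 3 members were past the fold limit and 3 photoreceptor, 9 scaffold, 3 GABA and 3 glycine genes fell. With edgeR these were 2, 3, 9, 2 and 3, and 5 calcium genes fell. With DESeq2 9 scaffold genes fell. Scaled to the mean of the pan-neuronal list, 2 members were past the fold limit and 6 pan-neuronal, 2 photoreceptor, 5 auxiliary, 9 scaffold, 2 GABA, 2 glycine, 2 calcium and 5 activity-regulated genes fell. Scaled to its median, 8 members fell, 1 past the fold limit, and 1 pan-neuronal, 0 cerebellar, 5 retinal, 2 photoreceptor, 2 auxiliary, 4 scaffold, 0 GABA, 3 glutamate, 2 glycine, 1 calcium and 1 activity-regulated genes fell. There, *grin1b*, *grm6b*, *gabrr3b* and *grik1a* were no longer past the threshold. Cerebellar genes that fell were 2 with library totals, a filter on the mean or a pseudocount of 5, and photoreceptor genes were 9 with library totals and 3 without a filter. With library totals *gabrb2a* was called (adjusted p = 0.0435). The cause of these shifts was not tested.

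The design text says that each mutant batch had WT larvae of its own crosses, but not that a replicate number marks a batch. Deviations of same-numbered pools correlated at 0.04, 0.15 and 0.04 over genes, and those of the other pairs at -0.09 to 0.05. Mutant pools 1 and 2 correlated best with the WT pool of their own number, and mutant pool 3 with WT pool 1 (0.05). These values do not settle whether the numbers pair the pools, so the replicate block was kept as an alternative. With the replicate number as a block, 25 members fell, and 8 photoreceptor genes.

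Of the members with differences near 0, some changed sign, none of them called. For *grin2da* the log2 fold change was 0.011 with TMM, 0.018 with edgeR, and 0.043 and 0.12 scaled to the pan-neuronal mean and median, and ranged from -0.081 to 0.072 with single pools left out. For *grik5* it was 0.014 and 0.094 on those scalings and -0.10 to 0.024 with single pools left out. For *grm3* it was 0.017 and 0.098 on those scalings and -0.14 to 0.10 with single pools left out. For *gabra6a* it was 0.034 with TMM, 0.033 with edgeR, 0.0069 with DESeq2, 0.066 and 0.15 on those scalings, and -0.068 to 0.039 with single pools left out.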

Other observations

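Glycine is the other fast inhibitory transmitter of the fish brain stem, spinal cord and retina. Of the 9 genes of its receptors and transporters 5 fell and 0 rose, with a median log2 fold change of -0.27, beside 15.1% of all tested genes that fell. The alpha subunit gene *glra2* had 133, 95.8 and 120 normalized counts in mutant pools 1, 2 and 3, against 176, 184 and 186 in WT pools 1, 2 and 3. The groups did not overlap (log2 fold change -0.65, standard error 0.15, limma adjusted p = 0.00834). The gene *glra4b* fell by 0.56 and the beta subunit gene *glrbb* by 0.27 on the log2 scale, and *slc6a5*, the uptake transporter gene of glycine neurons, was at 0.10 with overlapping pools (limma adjusted p = 0.421).

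Of the 23 tested genes in the list of activity-regulated genes, 11 fell (47.8%, beside 15.1% of all tested genes) and 0 rose (median -0.29). In bulk heads the cells that gave these reads cannot be told apart, and neuronal activity was not tested. The transcription factor gene *fosaa* had 96.3, 100.0 and 130 normalized counts in mutant pools 1, 2 and 3, against 200.3, 142 and 198 in WT pools 1, 2 and 3. It fell by 0.72 on the log2 scale with no overlap of pools (standard error 0.18, limma adjusted p = 0.0120). The phosphatase gene *dusp1* fell by 0.52 and *fosl2* by 0.44. The more abundant *egr1* was at -0.13 (limma adjusted p = 0.449) and the neuron-specific *npas4a* at -0.09 (adjusted p = 0.665), both with overlapping pools. WT pool 2 stood apart from the other WT pools in this list, with a median of -0.23 beside 0.06 and 0.15 in WT pools 1 and 3, and -0.32, -0.33 and -0.26 in mutant pools 1, 2 and 3.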
